A study of Mus musculus with 10 samples.

Results

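Interleukin-12, IL-15 and IL-27 are cytokines that act on NK cells, and 10 genes that encode them and their receptor chains were followed here through early melanomas. The 10 were chosen by name from a table of 45706 gene identifiers: 5 cytokine subunits (Il12a, Il12b, Il15, Il27 and Ebi3) and 5 receptor chains (Il12rb1, Il12rb2, Il15ra, Il2rb and Il2rg). A filter on low counts kept 6 of them (Il12b, Il15, Il12rb2, Il15ra, Il2rb and Il2rg) among the 14550 genes tested. The other 4 (Il12a, Il27, Ebi3 and Il12rb1) are described by their reads.

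RNA came from bulk tumors that C57BL/6 hosts, 8 weeks old, carried at day 4 after an injection of cells of a Braf V600E-driven mouse melanoma line. In 1 group of 4 libraries the tumor cells were wildtype (Ptgs+/+), and in another of 3 libraries they lacked the cyclooxygenase genes Ptgs1 and Ptgs2 after CRISPR/Cas9 editing (Ptgs-/-). The remaining 3 libraries were Ptgs-/- tumors of hosts depleted of NK cells, which per the labels received 200 µg of anti-NK1.1 (clone PK136) and 30 µg of anti-asialo GM1 on days 0 and 2, while the other hosts were untreated. The study's methods describe an earlier start and further doses for depletion in general, and do not say whether the Ptgs-/- cells were a single clone. The hosts themselves carried intact Ptgs genes in every group. Libraries were 3′-end tags, so counts do not scale with transcript length, and levels are given as CPM, counts scaled to the same library total after TMM normalization.

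IL-12 is a heterodimer of p35 (Il12a) and p40 (Il12b), made chiefly by dendritic cells and macrophages, and it signals through IL-12Rβ1 and IL-12Rβ2 to STAT4 and interferon-γ. IL-27 pairs p28 (Il27) with EBI3 (Ebi3), a subunit related to p40. IL-15 is held on the surface of the producing cell by IL-15Rα and presented to neighbors that carry IL-2Rβ (Il2rb) and the common gamma chain (Il2rg), through which it sustains NK cells and memory CD8+ T cells.

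The libraries held 8150556 to 12839174 counts, and a floor of 3 counts lay between 0.238 and 0.363 CPM, which covers counting error only. Ptgs1 fell by 0.76 and Ptgs2 by 2.62 on the log2 scale from Ptgs+/+ to Ptgs-/- tumors (edgeR quasi-likelihood, Benjamini-Hochberg adjusted p = 0.00202 and 0.00229, the test meant by edgeR adjusted p in what follows). The NK cell marker Ncr1 had 7 to 12 counts for Ptgs+/+, 20 to 77 for Ptgs-/- and 0 in each NK cell-depleted library. Of 8 melanoma markers, the pigment genes Tyr, Tyrp1, Mlana, Dct and Pmel had at most 8 counts in any library, whereas Mitf (means of 22.2 to 28.3 CPM by group), S100b (13.6 to 24.2) and Sox10 (1.76 to 2.72) were read, and the list summed to 28.7–63.0 CPM per library. A list of 10 skeletal muscle markers summed to 22.9–183 CPM in Ptgs+/+, 113–392 in Ptgs-/- and 2444–5701 in NK cell-depleted libraries, so muscle RNA and NK cell depletion cannot be told apart in these groups. The titles carry the codes EB046 and EB042, read here as experiments. EB042 marks Ptgs+/+ replicate 4 and Ptgs-/- replicate 3, and EB046 marks the rest. The labels do not say that each library came from a separate mouse, and p-values measure only the spread between these libraries.

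In Ptgs-/- against Ptgs+/+ tumors, 5 of the 6 genes tested passed an adjusted p of 0.05 and all 5 were higher: Il12b, Il15, Il12rb2, Il2rb and Il2rg. Il15ra did not pass. Over all 14550 genes, 12.1% passed as higher and 11% as lower. Il12b and Il2rb were also past an absolute log2 fold change of 1.5, as were 4.15% of all genes in either direction. The median log2 fold change of the 6 genes was 0.90, and that of all genes was −0.01.

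In Ptgs-/- tumors with NK cells against those without, only Il2rb passed among the 6 (higher with NK cells), beside 0.515% of all genes higher and 0.921% lower. Il2rb was past the fold threshold too, as were 1.15% of all genes. The median of the 6 log2 fold changes was 0.49, against −0.01 over all genes. In NK cell-depleted Ptgs-/- against Ptgs+/+ tumors 0 of the 6 passed edgeR's quasi-likelihood test, where 6.63% of all genes were higher, 5.87% lower and 2.71% past both thresholds. At an unadjusted p under 0.05 the count there was 2 (Il12rb2, higher, and Il2rb, lower), and DESeq2 called 1, Il2rb. Here and below, shares of all genes were counted for edgeR's quasi-likelihood test with adjusted p alone. Counts under other rules have no such share beside them. The 3 comparisons share groups of libraries and are not independent of each other.

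**Figure D1:**
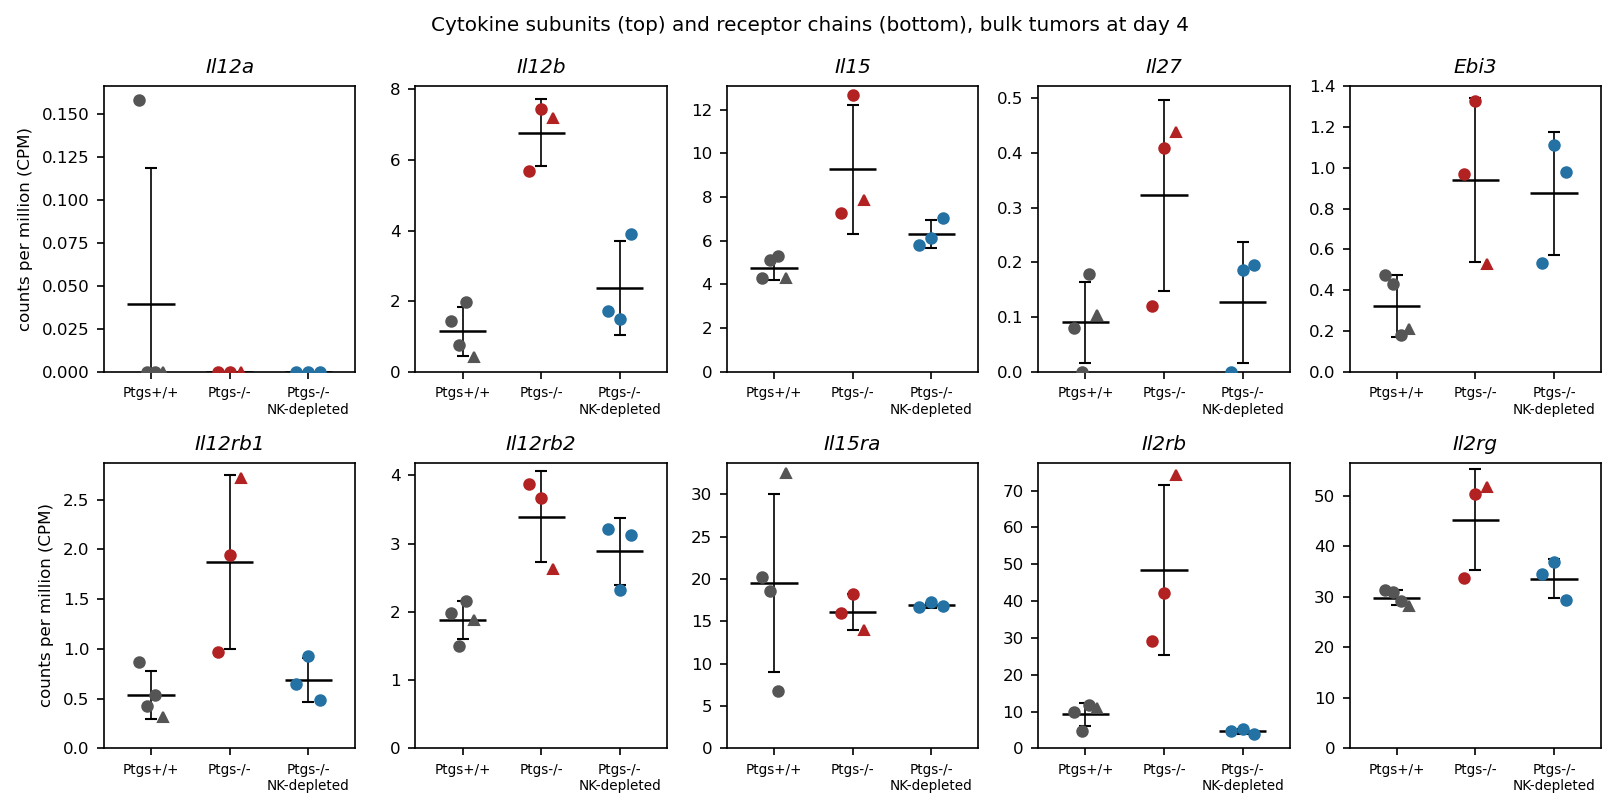
Level of each gene in CPM (y axis, linear, from 0) in the 4 Ptgs+/+, 3 Ptgs-/- and 3 NK cell-depleted Ptgs-/- libraries (x axis), with cytokine subunits in the top row and receptor chains in the bottom row. Circles are libraries of code EB046 and triangles those of EB042, horizontal lines are group means and bars 1 SD, cut at 0. Il12b stood between 5.69 and 7.45 CPM in Ptgs-/- libraries and at most at 3.91 elsewhere, and Il2rb between 29.3 and 74.1 against at most 11.7.

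Il12b (ENSMUSG00000004296; GRCm38 chr11:44400063-44414033, plus strand) encodes p40, which IL-12 shares with IL-23. It stood at 1.43, 0.750, 1.98 and 0.418 CPM in the Ptgs+/+ libraries, at 5.69, 7.45 and 7.19 in the Ptgs-/- libraries and at 1.71, 1.48 and 3.91 in NK cell-depleted libraries, in the order of their replicates. Every Ptgs-/- library was above every other library, and the remaining groups overlapped. Ptgs+/+ libraries averaged 1.14 ± 0.696 CPM (SD, n = 4), Ptgs-/- libraries 6.78 ± 0.952 (SD, n = 3) and NK cell-depleted libraries 2.37 ± 1.34 (SD, n = 3). Against Ptgs+/+ tumors Il12b was 5.75-fold higher in Ptgs-/- tumors (log2 fold change 2.52, standard error 0.43, 95% interval 1.58 to 3.47, edgeR adjusted p = 0.00195). Among libraries of code EB046 the log2 fold change was 2.25 (edgeR adjusted p = 0.0140).

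Between Ptgs-/- tumors with and without NK cells the log2 fold change of Il12b was 1.51 (95% interval 0.55 to 2.48), with each of the 3 NK cell-competent libraries higher, and its adjusted p of 0.175 in edgeR's quasi-likelihood test missed the threshold. That call depended on the method: adjusted p was 0.0308 without the filter on low counts, 0.0414 with edgeR's likelihood ratio test and 0.0508 with DESeq2. NK cell-depleted against Ptgs+/+ tumors gave 1.01 (95% interval −0.01 to 2.03, edgeR adjusted p = 0.187). NK cell-depleted replicate 3, the highest of its group, carried much of that value, which was 0.45 without it.

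The window around the start of Il12b is shown because this was the cytokine gene with the largest fold change among those tested. It runs from 250 bases before to 50 after the annotated start (RefSeq, GRCm38.p6, chr11:44399813-44400112, plus strand), and neither a STAT element (GAS, TTCNNNGAA), an IRF element (GAAANNGAA) nor a T-box core (GGTGTGA) matched in it on either strand. Over 32851 such windows, 8.30% held the STAT letters, 8.56% the IRF letters and 3.98% the T-box letters, and a match or its lack is a description of letters alone.
Il12b: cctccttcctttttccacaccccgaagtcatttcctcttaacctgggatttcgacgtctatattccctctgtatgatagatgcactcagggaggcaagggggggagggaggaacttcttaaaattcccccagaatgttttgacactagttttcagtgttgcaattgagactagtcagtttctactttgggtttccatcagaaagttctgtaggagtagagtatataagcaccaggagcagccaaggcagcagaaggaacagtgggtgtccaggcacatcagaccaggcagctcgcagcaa

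Type 1 and mature dendritic cells are known sources of p40, and their markers moved too. The type 1 dendritic cell markers summed to 72.8–90.2 CPM in Ptgs+/+, 124–219 in Ptgs-/- and 153–162 in NK cell-depleted libraries, and 5 of the 8 rose in Ptgs-/- against Ptgs+/+ tumors while 0 of 8 passed edgeR's quasi-likelihood test between Ptgs-/- tumors with and without NK cells (2 at an unadjusted p under 0.05 and 0 with DESeq2). Per 100 CPM of that sum, Il12b stood at 0.463–2.56 CPM in Ptgs+/+ libraries, 3.29–4.58 for Ptgs-/- and 0.920–2.41 in NK cell-depleted libraries. So the Ptgs-/- libraries with NK cells stayed above both other groups after division by this sum, whereas the other 2 groups overlapped. The sum weights abundant markers most, and from Ptgs+/+ to Ptgs-/- means these were Wdfy4 (25.4 to 58.2 CPM), Cd24a (25.3 to 29.5) and Tlr3 (17.6 to 24.1). Batf3 and Xcr1 rose more than every other marker of the list, with log2 fold changes of 2.76 and 2.16 beside 2.52 for Il12b. Il12b thus rose less than Batf3 from Ptgs+/+ to Ptgs-/- tumors, and the separation given above holds for this sum alone. Whether Il12b stays above after division by Batf3 or Xcr1 was not tested, so a rise of Il12b beyond type 1 dendritic cell content cannot be read from the sum. The 8 mature dendritic cell markers summed to 130–156 CPM in Ptgs+/+, 234–319 in Ptgs-/- and 154–197 in NK cell-depleted libraries. Of these, 5 rose in Ptgs-/- against Ptgs+/+ tumors and 2, Ccl22 and Ccl5, were higher with than without NK cells (4 with DESeq2). The median log2 fold change in the latter comparison was 0.88, against 0.21 for the type 1 list. The paper's single-cell data placed Ccl5 transcripts largely in the NK cell cluster. Ccl5 averaged 11.4 CPM in Ptgs+/+, 82.6 in Ptgs-/- and 18.5 in NK cell-depleted libraries, and Fscn1, the most abundant of the 8, 106, 108 and 113. The sum thus includes a gene that NK cells express, and it was not recomputed without Ccl5. Per 100 CPM of the mature dendritic cell sum Il12b stood at 0.288–1.52 CPM in Ptgs+/+, 2.25–2.96 in Ptgs-/- and 0.752–2.53 in NK cell-depleted libraries, and here NK cell-depleted replicate 3 (2.53) reached into the Ptgs-/- range. These ratios were chosen after the values were seen and are given without a test. In bulk tumors, fewer cells of a type and less RNA per cell cannot be told apart.

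**Figure D2:**
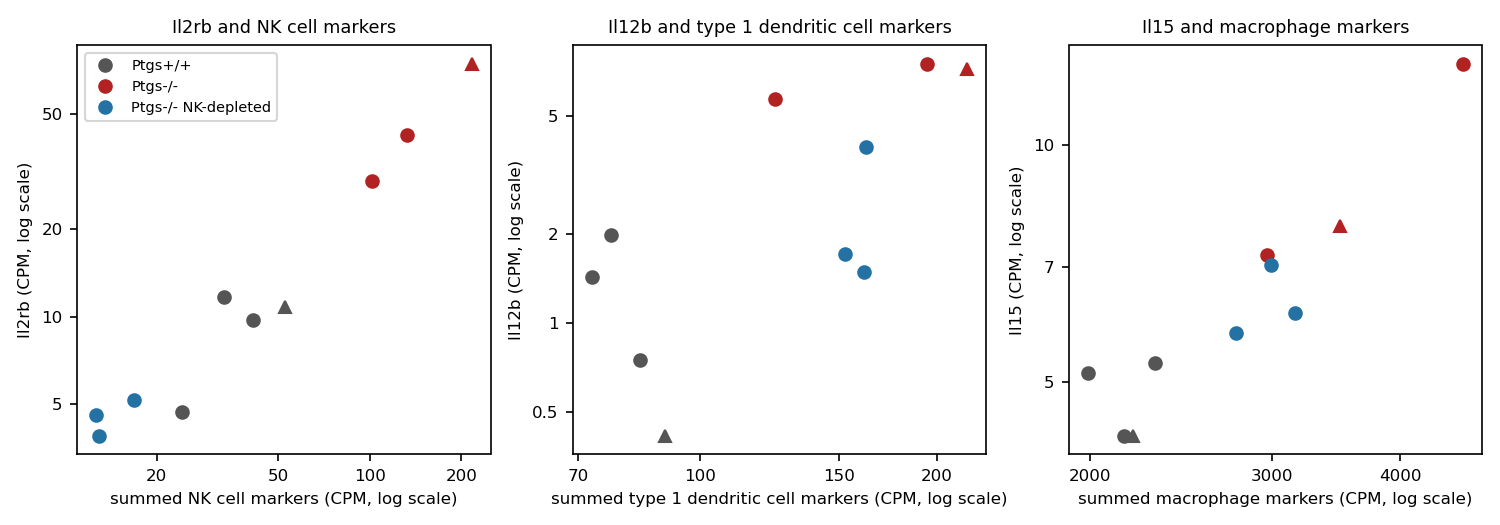
Il2rb, Il12b and Il15 (CPM, y axes, log scale) beside the summed markers of NK cells, type 1 dendritic cells and macrophages (CPM, x axes, log scale), 1 point per library, colored by group, with triangles for code EB042. Il2rb and the NK cell sum spread along 1 diagonal through all groups. The NK cell-depleted libraries hold 153–162 CPM of type 1 dendritic cell markers with less Il12b than the Ptgs-/- libraries. Single markers of that sum differed in direction from Ptgs-/- to NK cell-depleted means. Xcr1 (10.4 to 6.21 CPM) and Batf3 (49.0 to 29.9) were lower, Clec9a (3.54 to 3.19) and Wdfy4 (58.2 to 53.1) changed little, and Cd24a (29.5 to 43.0) was higher.

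The partner subunit was scarcely read. Il12a (ENSMUSG00000027776; chr3:68690644-68698547, plus strand) had 2 counts in Ptgs+/+ replicate 1 and 0 in each of the other 9 libraries, below the floor everywhere, so a difference in p35 was not detectable at this depth. Il23a, the other subunit of IL-23, was as scarce, with 0 to 2 counts in any library. Il12b reads therefore report p40 and neither the assembled IL-12 nor IL-23.

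Both subunits of IL-27 were also below the filter. Il27 (ENSMUSG00000044701; chr7:126589010-126594941, minus strand) had 1, 0, 2 and 1 counts for Ptgs+/+, 1, 4 and 5 for Ptgs-/- and 0, 2 and 2 in NK cell-depleted libraries. The groups overlapped, and exact two-sided permutation tests of mean CPM gave p = 0.114 for Ptgs-/- against Ptgs+/+ and p = 0.3 against NK cell-depleted tumors. Its last 103 bases lie across from Apobr on the other strand, and the study does not state whether counting used strand.

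Ebi3 (ENSMUSG00000003206; chr17:55952640-55957022, plus strand) had 6, 4, 2 and 2 counts for Ptgs+/+, 8, 13 and 6 for Ptgs-/- and 5, 12 and 10 in NK cell-depleted libraries. The Ptgs+/+ mean was 0.323 ± 0.151 CPM (SD, n = 4), the Ptgs-/- mean 0.940 ± 0.401 (SD, n = 3) and the NK cell-depleted mean 0.875 ± 0.302 (SD, n = 3). Both Ptgs-/- groups lay above every Ptgs+/+ library, with or without NK cells, at an exact two-sided permutation p of 0.0571 each, the smallest that 3 against 4 libraries can give. Between the Ptgs-/- groups the levels overlapped (exact p = 1). With no filter on low counts, neither difference of Ebi3 from Ptgs+/+ tumors passed edgeR's quasi-likelihood test (adjusted p = 0.0825 for Ptgs-/- and 0.146 for NK cell-depleted tumors). The antisense gene Gm16712, which shares 2252 bases with Ebi3, had 0 to 4 counts in any library.

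Il15 (ENSMUSG00000031712; chr8:82331632-82403222, minus strand) was read at 4.28, 5.14, 5.30 and 4.28 CPM in Ptgs+/+ libraries, 7.26, 12.7 and 7.89 for Ptgs-/- and 5.78, 6.12 and 7.03 in NK cell-depleted libraries. The 3 groups did not overlap, with Ptgs-/- highest (mean 9.27 ± 2.95, SD, n = 3), NK cell-depleted tumors next (6.31 ± 0.647, SD, n = 3) and Ptgs+/+ lowest (4.75 ± 0.544, SD, n = 4). Ptgs-/- exceeded Ptgs+/+ tumors 1.95-fold (log2 fold change 0.97, standard error 0.21, edgeR adjusted p = 0.00789) and the value was 1.05 within code EB046. The differences of the NK cell-depleted tumors from both other groups did not pass. They were 0.55 below Ptgs-/- tumors (95% interval of the difference 0.06 to 1.05, edgeR adjusted p = 0.387) and 0.41 above Ptgs+/+ tumors (−0.07 to 0.89, edgeR adjusted p = 0.257). Ptgs-/- replicate 2 was the highest library, and without it the difference from NK cell-depleted tumors was 0.28.

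Macrophages are a known source of IL-15. Their 12 markers summed to 1988–2313 CPM in Ptgs+/+, 2969–4604 in Ptgs-/- and 2768–3161 in NK cell-depleted libraries, with 8 of 12 higher in Ptgs-/- against Ptgs+/+ tumors. Per 100 CPM of that sum Il15 stood at 0.195–0.259 CPM in Ptgs+/+, 0.226–0.275 in Ptgs-/- and 0.194–0.235 in NK cell-depleted libraries. All 3 ranges overlapped after division, and the part of macrophage number in the Il15 levels was not tested.

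Il15ra (ENSMUSG00000023206; chr2:11705290-11734317, plus strand), the chain that presents IL-15, stood apart from the other genes. It was read at 20.2, 18.6, 6.82 and 32.5 CPM in Ptgs+/+ libraries, 16.0, 18.3 and 14.0 for Ptgs-/- and 16.7, 17.3 and 16.8 in NK cell-depleted libraries. The Ptgs+/+ libraries held both the lowest and the highest value of the series and enclosed all the others. From Ptgs+/+ to Ptgs-/- tumors the log2 fold change was −0.28 (standard error 0.36, 95% interval −1.07 to 0.52, edgeR adjusted p = 0.624). It turned to 0.11 without Ptgs+/+ replicate 4 and was −0.54 without Ptgs+/+ replicate 3, so no direction can be given. Against NK cell-depleted tumors it was −0.07 (95% interval −0.92 to 0.78, edgeR adjusted p = 0.957), and turned to 0.04 without Ptgs-/- replicate 3.

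Il2rb (ENSMUSG00000068227; chr15:78479256-78495271, minus strand) encodes IL-2Rβ, which NK cells carry at high level and which binds IL-2 and IL-15. Its levels were 9.75, 4.71, 11.7 and 10.9 CPM in Ptgs+/+ libraries, 29.3, 42.3 and 74.1 for Ptgs-/- and 4.61, 5.20 and 3.91 in NK cell-depleted libraries. All Ptgs-/- libraries with NK cells were above the rest. Ptgs+/+ replicate 2 fell within the range of the NK cell-depleted libraries. The mean was 9.25 ± 3.13 CPM for Ptgs+/+ (SD, n = 4), 48.6 ± 23.1 for Ptgs-/- (SD, n = 3) and 4.57 ± 0.645 for NK cell-depleted tumors (SD, n = 3).

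Il2rb was 5.24-fold higher in Ptgs-/- than in Ptgs+/+ tumors (log2 fold change 2.39, standard error 0.32, edgeR adjusted p = 0.000575). It was 10.6-fold higher with NK cells than without them (log2 fold change 3.41, standard error 0.38, 95% interval 2.57 to 4.25, edgeR adjusted p = 0.00153). Within code EB046 these values were 2.05 and 2.98 (edgeR adjusted p = 0.00496 and 0.0105). NK cell-depleted against Ptgs+/+ tumors gave −1.02 (95% interval −1.82 to −0.22, edgeR adjusted p = 0.0939). This last value passed with DESeq2 (adjusted p = 0.0297), with edgeR's likelihood ratio test (0.0386), without the filter (0.0239) and without Ptgs+/+ replicate 2 (0.0406).

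Il2rb moved with the NK cell markers. Of 11 NK cell markers tested, 10 were higher in Ptgs-/- against Ptgs+/+ tumors, 9 were higher with than without NK cells, and 5 were lower in NK cell-depleted than in Ptgs+/+ tumors. Their sum over 12 genes ran from 24.2 to 52.6 CPM in Ptgs+/+, from 102 to 216 in Ptgs-/- and from 12.6 to 16.8 in NK cell-depleted libraries. Per 100 CPM of this sum Il2rb stood at 19.5–35.1 CPM, 28.7–34.3 and 30.3–36.4 in the same order. The ranges overlapped between all groups, and after this division no group of libraries stood apart. The makeup of the sum differed, however. Its largest members were Gzma (mean 47.8 CPM) and Klrc1 (25.1) in Ptgs-/- libraries. In NK cell-depleted libraries they were Klrd1 (3.63), Klrg1 (3.53) and Klrk1 (3.10), with Klrc1 at 0.431, Gzma at 0.257 and Ncr1 and Prf1 at 0. The ratio therefore does not give Il2rb per NK cell in the depleted libraries. The sum includes Klrd1, Nkg7, Gzma and others that cytotoxic T cells also express, and T cell markers summed to 4.04–6.16 CPM in Ptgs+/+, 14.8–38.9 in Ptgs-/- and 10.9–17.8 in NK cell-depleted libraries. The 2 genes whose log2(CPM + 1) followed Il2rb most closely over the 10 libraries were Klra7, an NK cell receptor gene of a family of near-identical copies, and Nkg7, a cytotoxic granule gene (Pearson r = 0.986 each).

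Il2rg (ENSMUSG00000031304; chrX:101264378-101268255, minus strand) encodes the common gamma chain of the receptors for IL-2, IL-4, IL-7, IL-9, IL-15 and IL-21, which lymphoid and myeloid cells carry. It stood at 31.2, 30.8, 29.2 and 28.1 CPM in Ptgs+/+ libraries, 33.8, 50.3 and 51.6 for Ptgs-/- and 34.5, 36.9 and 29.3 in NK cell-depleted libraries. Ptgs-/- libraries were above all Ptgs+/+ libraries, but replicate 1 lay within the NK cell-depleted range. The log2 fold change was 0.60 against Ptgs+/+ tumors (standard error 0.15, fold 1.52, edgeR adjusted p = 0.0135). It missed the threshold at 0.49 within code EB046 (edgeR adjusted p = 0.0929) and at 0.55 without Ptgs-/- replicate 2 (edgeR adjusted p = 0.0515). Against NK cell-depleted tumors it was 0.43 (95% interval 0.08 to 0.78, edgeR adjusted p = 0.317), and passed without Ptgs-/- replicate 1, at 0.60 (edgeR adjusted p = 0.0316).

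The ratio of Il2rb to Il2rg within a library, also chosen after the values were seen, was 0.153–0.400 in Ptgs+/+, 0.840–1.44 in Ptgs-/- and 0.133–0.141 in NK cell-depleted libraries, as a ratio of 3′ tags and not of proteins. Ptgs-/- libraries did not overlap with either group, and the NK cell-depleted ones lay below all 4 Ptgs+/+ libraries. The genes most like Il2rg were Cd3d, a T cell receptor complex subunit, and Skap1, a T cell adaptor (r = 0.965 and 0.964). Per 100 CPM of the summed macrophage markers Il2rg stood at 1.26–1.55 CPM in Ptgs+/+, 1.09–1.48 in Ptgs-/- and 0.978–1.25 in NK cell-depleted libraries. The Ptgs-/- range overlapped both others, and the part of each cell type in the Il2rg levels was not tested. Gm20489, which spans Il2rg on the same strand, was at 0 counts in every library.

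Il12rb1 (ENSMUSG00000000791; chr8:70808449-70821424, plus strand), shared by the receptors for IL-12 and IL-23, was below the filter at 11, 4, 6 and 3 counts for Ptgs+/+, 8, 19 and 31 for Ptgs-/- and 6, 10 and 5 in NK cell-depleted libraries. In CPM the Ptgs-/- libraries (0.968, 1.94 and 2.72) were above all others (0.313–0.872 in Ptgs+/+ and 0.489–0.928 in NK cell-depleted tumors). Exact two-sided permutation tests gave p = 0.0571 against Ptgs+/+ and p = 0.1 against NK cell-depleted tumors, the smallest these group sizes allow. With no filter on low counts, edgeR's quasi-likelihood test gave a log2 fold change of 1.79 against Ptgs+/+ tumors (adjusted p = 0.00756 over 27098 genes) and of 1.45 against NK cell-depleted tumors (adjusted p = 0.212), which did not pass.

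Il12rb2 (ENSMUSG00000018341; chr6:67291318-67376188, minus strand) encodes the signaling chain of the IL-12 receptor. It was read at 1.98, 1.5, 2.15 and 1.88 CPM in Ptgs+/+ libraries, 3.87, 3.68 and 2.63 for Ptgs-/- and 3.21, 2.32 and 3.13 in NK cell-depleted libraries. Both Ptgs-/- groups were above every Ptgs+/+ library and overlapped with each other. From Ptgs+/+ to Ptgs-/- tumors the log2 fold change was 0.83 (standard error 0.25, fold 1.78, edgeR adjusted p = 0.0303) and 1.02 within code EB046 (edgeR adjusted p = 0.0458). It passed in 6 of 10 fits that each left out 1 library. The edgeR adjusted p was 0.0847 and 0.0934 without Ptgs-/- replicates 1 and 2, 0.0532 and 0.0782 without Ptgs+/+ replicates 1 and 2, and 0.0627 without the filter.

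Against NK cell-depleted tumors the log2 fold change of Il12rb2 was 0.23 (95% interval −0.34 to 0.79, edgeR adjusted p = 0.794), and NK cell-depleted against Ptgs+/+ tumors gave 0.61 (0.06 to 1.15, edgeR adjusted p = 0.139). Il12rb2 therefore gave no detectable difference in the comparison in which Il2rb differed most, though the difference between the genes was not tested. The genes most like it were Klf4, a Krüppel-like transcription factor, and Tubb2b, a beta-tubulin (r = 0.968 and 0.965), neither an NK cell marker. The last 6419 bases of Il12rb2 overlap the abundant gene Serbp1 on the other strand, which had 13276 to 26314 counts per library against 14 to 36 for Il12rb2. Serbp1 moved the other way (log2 fold change −0.51 from Ptgs+/+ to Ptgs-/-, edgeR adjusted p = 0.00478), and its part in the Il12rb2 reads was not tested.

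Of the 10 genes, 6 had a start window in the RefSeq table, and the STAT element matched in 1 of them, that of Il12rb2, at 123 bases before the start. The IRF element matched in both windows of Il15ra, for which no difference passed, and in no other member. The T-box core matched in none. The windows of Il12rb2 (chr6:67376139-67376438, minus strand) and Il2rg (chrX:101268206-101268505, minus strand), receptor chains that rose in Ptgs-/- against Ptgs+/+ tumors, are shown with the first window of Il15ra (chr2:11705043-11705342, plus strand), for which no difference passed. Capitals mark the matched letters, in Il15ra those of the IRF element read from the other strand.
Il12rb2: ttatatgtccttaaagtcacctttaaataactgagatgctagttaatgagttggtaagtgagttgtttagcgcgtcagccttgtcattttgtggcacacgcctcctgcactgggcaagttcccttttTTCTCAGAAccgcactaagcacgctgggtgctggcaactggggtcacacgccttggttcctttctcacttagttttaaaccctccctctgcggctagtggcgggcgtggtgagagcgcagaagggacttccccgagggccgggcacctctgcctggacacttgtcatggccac
Il2rg: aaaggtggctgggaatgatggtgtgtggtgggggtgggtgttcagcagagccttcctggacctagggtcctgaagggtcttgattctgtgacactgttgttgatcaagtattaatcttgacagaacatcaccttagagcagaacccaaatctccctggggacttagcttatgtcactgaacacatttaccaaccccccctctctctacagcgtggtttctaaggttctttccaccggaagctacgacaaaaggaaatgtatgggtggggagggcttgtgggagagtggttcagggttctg
Il15ra: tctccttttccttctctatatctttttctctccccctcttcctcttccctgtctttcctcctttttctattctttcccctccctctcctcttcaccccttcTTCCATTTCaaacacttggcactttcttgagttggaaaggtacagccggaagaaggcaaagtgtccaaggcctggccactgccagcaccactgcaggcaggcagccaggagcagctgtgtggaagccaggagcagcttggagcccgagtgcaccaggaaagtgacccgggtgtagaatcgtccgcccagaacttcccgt

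**Figure D3:**
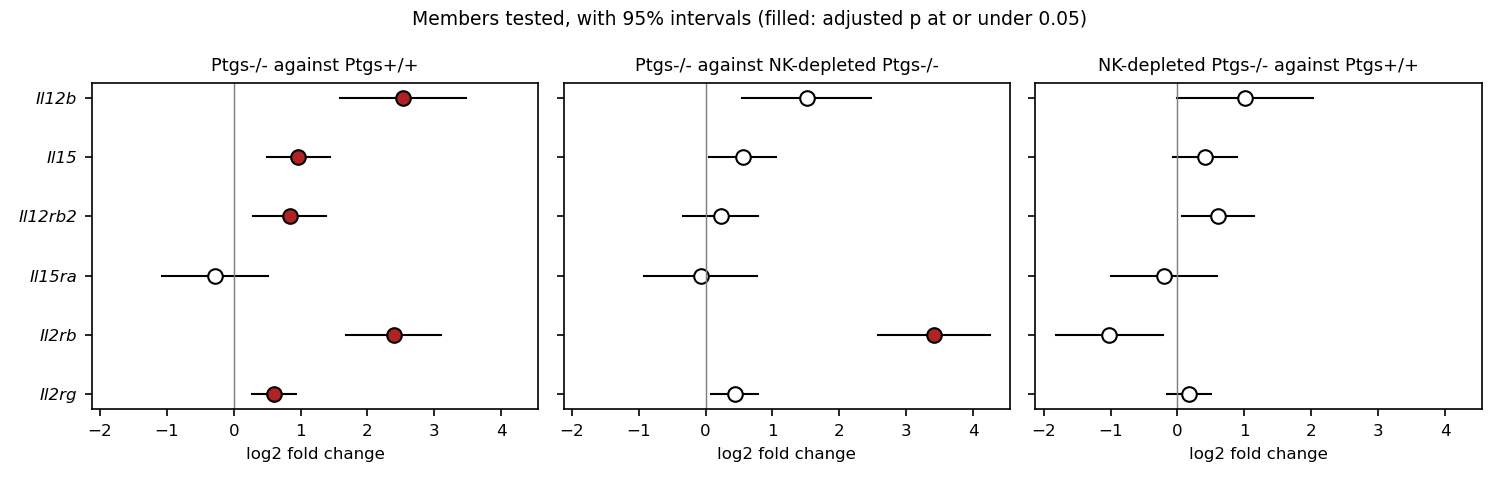
Log2 fold change (x axes) of the 6 genes tested (y axis) in the 3 comparisons (panels), with 95% intervals, filled where the adjusted p of edgeR's quasi-likelihood test was at or under 0.05. Filled points number 5 in Ptgs-/- against Ptgs+/+ tumors, 1 (Il2rb) in Ptgs-/- tumors with against without NK cells, and 0 in NK cell-depleted Ptgs-/- against Ptgs+/+ tumors.

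Il12b and Il15 had a correlation of 0.868 across the 10 libraries, the highest among the 6 genes, and Il15ra had correlations between −0.331 and −0.079 with the other 5. These are descriptions over libraries that share group, depth and cell makeup. The genes most like Il12b were Plekha1, which encodes a phosphoinositide-binding protein, and Jund, an AP-1 subunit (r = 0.974 and 0.963). Those most like Il15 were Slfn1, a Schlafen family gene, and Camk1, a calmodulin-dependent kinase (r = 0.970 and 0.968), and those most like Il15ra were Tmem39b, a transmembrane protein gene, and Slc30a5, a zinc transporter (r = 0.972 and 0.961).

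Other genes of the same pathways were counted from lists of related cytokines, mediators and targets. Of 10 common gamma chain cytokines and receptor chains 6 were tested, and 3 rose in Ptgs-/- against Ptgs+/+ tumors: Il2ra, the high-affinity IL-2 receptor chain (log2 fold change 1.52, edgeR adjusted p = 0.00683), Il7r (0.92, 0.00651) and Il21r (0.66, 0.00994). Between Ptgs-/- tumors with and without NK cells 0 of the 6 passed edgeR's quasi-likelihood test (2 at an unadjusted p under 0.05 and 1 with DESeq2), and there Il2ra gave 0.98 (edgeR adjusted p = 0.285) and Il21r 0.71 (0.0701). The list's median log2 fold changes in these comparisons were 0.65 and 0.41. Of the related IL-12 family genes only Il6st, the gp130 chain of the IL-27 receptor, was tested. It was lower in NK cell-depleted than in Ptgs+/+ tumors (−0.42, edgeR adjusted p = 0.0327). In Ptgs-/- against Ptgs+/+ tumors Il6st gave −0.33 (edgeR adjusted p = 0.0565), and with against without NK cells 0.09 (0.822). Il27ra, the other IL-27 receptor chain, had 2, 4, 2 and 2 counts for Ptgs+/+, 7, 7 and 5 for Ptgs-/- and 7, 6 and 9 in NK cell-depleted libraries. In CPM both Ptgs-/- groups lay above every Ptgs+/+ library (at least 0.438 against at most 0.428), without a test.

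IL-18 acts with IL-12 on NK cells. Il18 itself (log2 fold change 0.76, edgeR adjusted p = 0.0285), its receptor chain Il18r1 (1.51, 0.00656) and its soluble inhibitor Il18bp (1.34, 0.00564) rose in Ptgs-/- against Ptgs+/+ tumors, 3 of 4 tested. Il18r1 alone passed between Ptgs-/- tumors with and without NK cells (1.78, edgeR adjusted p = 0.0333), where Il18 gave 0.55 (0.412). In NK cell-depleted against Ptgs+/+ tumors 0 of the 4 passed edgeR's quasi-likelihood test, 0 were under an unadjusted p of 0.05 and 0 passed DESeq2. The medians of the 4 were 1.05 in the first comparison and 0.77 with against without NK cells.

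Among 8 JAK-STAT mediators, 3 were higher and 1 lower in Ptgs-/- against Ptgs+/+ tumors. Stat4, which IL-12 activates, was higher by 1.21 (edgeR adjusted p = 0.00537), Tyk2 by 0.81 (0.00338) and Jak1 by 0.37 (0.0259), and Stat3 was lower at −0.33 (0.0177). Stat5a and Stat5b, which IL-15 activates, gave 0.21 and 0.18 and did not pass. The list's medians were 0.19 in this comparison and 0.22 with against without NK cells. Stat4 was the 1 mediator that passed between Ptgs-/- tumors with and without NK cells (1.54, edgeR adjusted p = 0.0168). In NK cell-depleted against Ptgs+/+ tumors Jak2 (−0.32, edgeR adjusted p = 0.0440) and Stat3 (−0.41, 0.0104) were lower.

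Of 12 feedback and target genes 10 were tested, and in Ptgs-/- against Ptgs+/+ tumors 6 rose and 1 fell. Those that rose were the transcription factors Tbx21 (T-bet; log2 fold change 2.63, edgeR adjusted p = 0.000185) and Eomes (1.62, 0.00336), the granzyme gene Gzmb (1.34, 0.0351), the survival genes Bcl2 (0.69, 0.00564) and Pim1 (0.67, 0.00772) and the feedback gene Socs2 (0.68, 0.0291). Socs3, a feedback inhibitor of gp130 signaling, fell (−1.05, edgeR adjusted p = 0.0270). With against without NK cells Tbx21 (2.51, 0.00213), Eomes (3.12, 0.00200) and Gzmb (3.02, 0.0120) were higher. Eomes (−1.50, 0.0285) and Socs3 (−1.10, 0.0341) were lower in NK cell-depleted than in Ptgs+/+ tumors. The list's medians were 0.67 against Ptgs+/+ tumors and 0.31 with against without NK cells. Eomes is also on the NK cell marker list, whose sums moved the same way. Ifng, the main product of IL-12 signaling in NK cells, was below the filter at 0, 0, 0 and 2 counts for Ptgs+/+, 3, 4 and 7 for Ptgs-/- and 1, 0 and 0 in NK cell-depleted libraries.

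Of 6 transcription factors that drive the cytokine genes, 4 rose in Ptgs-/- against Ptgs+/+ tumors: Batf3 (2.76, edgeR adjusted p = 4.29e-05) and Irf8 (1.42, 0.000135), which type 1 dendritic cells require, Irf1 (0.80, 0.000260), an interferon-induced factor, and Rel (0.70, 0.00323), the c-Rel subunit of NF-κB. Irf1 passed between Ptgs-/- tumors with and without NK cells (0.50, edgeR adjusted p = 0.0341). Batf3 (2.05, 0.000249) and Irf8 (0.80, 0.00494) were higher in NK cell-depleted than in Ptgs+/+ tumors. The list's medians were 0.75 against Ptgs+/+ tumors and 0.44 with against without NK cells. Batf3 is on the type 1 dendritic cell marker list as well.

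**Figure D4:**
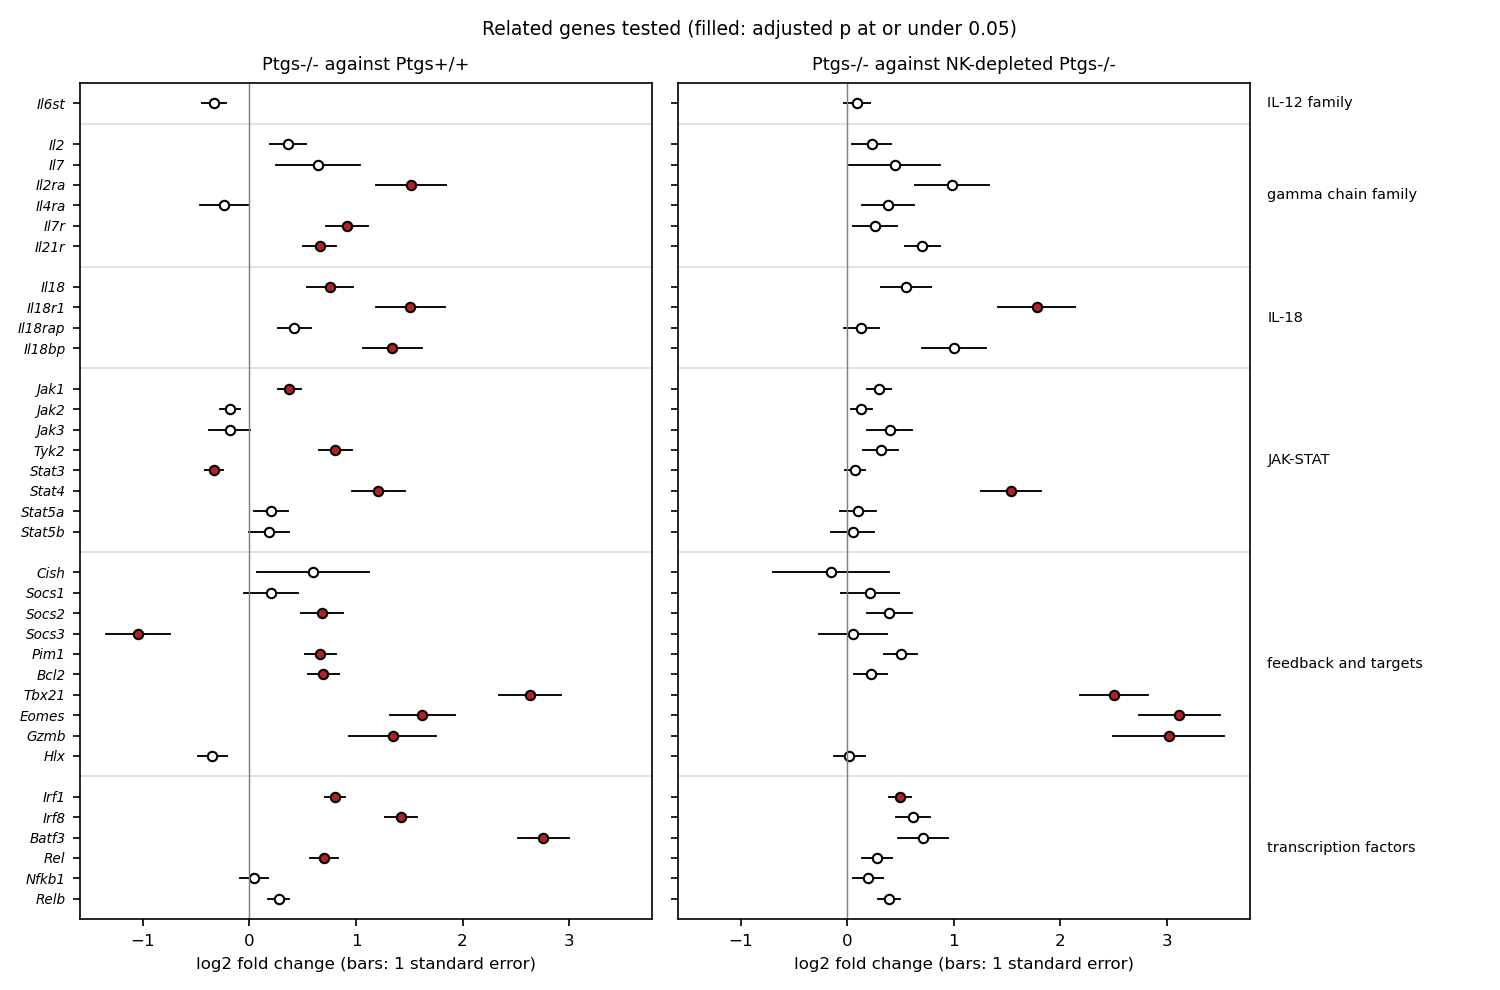
Log2 fold change (x axes, bars 1 standard error) of the tested genes of 6 pathway lists (y axis) in Ptgs-/- against Ptgs+/+ tumors (left) and in Ptgs-/- tumors with against without NK cells (right), filled where the adjusted p of edgeR's quasi-likelihood test was at or under 0.05. In the right panel the filled points are Il18r1 (1.78), Stat4 (1.54), Tbx21 (2.51), Eomes (3.12), Gzmb (3.02) and Irf1 (0.50).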

How the data were processed

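Bulk tumor RNA of 10 libraries was prepared with QuantSeq 3′ FWD kits from 500 ng. The authors removed contaminants and 12 leading bases (BBDUK) and tails (fqtrim, cutadapt), mapped reads to GRCm38 (STAR) and assigned them to Ensembl version 86 genes (featureCounts). The deposited values are raw counts per gene, neither normalized nor pooled. Strand and multi-mapping settings are not given in the sources used here. Groups came from the labels.

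Tests used edgeR 4.0.16 in R 4.3.3. filterByExpr retained 14550 genes, libraries were scaled by TMM, and 1 quasi-likelihood model held all 3 groups, with p-values adjusted by Benjamini-Hochberg over the genes tested. CPM is computed after TMM. Genes below the filter were compared by exact two-sided permutation. DESeq2 1.42.0 was among the alternatives. The script was tested on simulated data. Coordinates are from GENCODE M21 on GRCm38, and promoter windows from RefSeq.

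The 10 genes and all lists were chosen with earlier results of these data known. Named genes are the 10, list genes past an adjusted p of 0.05 in any comparison with Ifng, Stat4, Tbx21, Il18, Il2ra and Il21r in any case, and the 2 genes of highest Pearson r to each tested member. Il23a, Il27ra, Stat5a, Stat5b and some cell type markers are also named. A gene of the planned mediator list is not reported here. A planned alignment of subunit proteins was not run. Ensembl identifiers without a symbol numbered 563 of 45706.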

Additional observations from a re-analysis of the deposited data

Results flagged for a closer look

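Il12a in Ptgs+/+ replicate 1, at 0.159 CPM (2 counts), stood apart from the other 3 libraries of its group, which held 0 counts. Its gap to the nearest library spans the whole range of the group, above Dixon's 95% critical value for 4 samples. There were 10 such groups, 1 per gene. Chance marks about 1 group in 20 when values are continuous, but that rate does not hold here, since any gene read in 1 library alone spans its group's whole range. The value is below the floor of 3 counts, which is 0.238 CPM in that library.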

How the results depend on the processing

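In Ptgs-/- against Ptgs+/+ tumors the 5 genes that passed became 2 when a log2 fold change of 1.5 was also required and ranged from 3 to 5 over fits without 1 library, with 3 without Ptgs-/- replicate 2. Against NK cell-depleted tumors the count of 1 became 2 with edgeR's likelihood ratio test and with no filter on low counts, and ranged from 1 to 2 without 1 library, with 2 without Ptgs-/- replicate 1. NK cell-depleted against Ptgs+/+ tumors went from 0 to 1 with DESeq2, with the likelihood ratio test and with no filter, and ranged from 0 to 1, with 1 without Ptgs+/+ replicate 2. How many of all genes each alternative called was not counted, so these changes cannot be set against the whole table. Il15ra changed sign among libraries of code EB046 alone, at 0.193 (Ptgs-/- against Ptgs+/+), 0.036 (against NK cell-depleted) and 0.158 (NK cell-depleted against Ptgs+/+), and over fits without 1 library ranged from −0.54 to 0.11, from −0.16 to 0.042 and from −0.48 to 0.16. The cause of these changes was not tested.

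Il12b, Il15 and Il2rb against Ptgs+/+ tumors, and Il2rb against NK cell-depleted tumors, passed in all 10 fits without 1 library and under every alternative that gave a value. Il12b gave none with at least 10 counts required in every library. Same-numbered libraries did not deviate together throughout: r was 0.002 to 0.083 between both Ptgs-/- groups, −0.222 to 0.386 between Ptgs+/+ and Ptgs-/- libraries and −0.299 to 0.189 between Ptgs+/+ and NK cell-depleted libraries. The numbers were not taken as pairs. With the title number as a replicate block the counts were 5, 1 and 0, as without it. Of the 10 genes, 4 were too thinly read for the model, so their differences rest on at most 31 counts in a library.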
